A study of Mus musculus with 16 samples.

Results

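Gastrocnemius, a calf muscle made mostly of fast fibres, was compared between tumor-bearing mice that received amiloride (AM) and tumor-bearing mice whose tumors grew from Rab27 knock-down cells (KD). The groups were set by the labels, which gave 4 AM and 4 KD mice, or 8 of the 16 mice of the series, with 1 poly(A) RNA-seq library per mouse. The question was how alike the drug and the genetic block of exosome release left the muscle, gene by gene and by gene group. AM mice carried wild-type tumor cells and received amiloride intraperitoneally at 2 mg/kg each day from day 9. KD mice were inoculated with tumor cells in which shRNAs delivered by lentivirus lowered Rab27a and Rab27b, and they received PBS in place of the drug. All muscles were taken on day 30 from mice that were 6 to 8 weeks old at the start. In both groups, mice 1 and 2 are labelled C57BL/6, the hosts of LLC lung carcinoma cells, and mice 3 and 4 BALB/c, the hosts of CT26 colon carcinoma cells, so that strain and tumor line cannot be told apart. The study's methods name male mice, whereas the deposited protocol names C57BL/6 males and BALB/c mice of both sexes. Tumor-bearing mice given PBS alone (CAC) and mice without a tumor that also received PBS (NOR), 4 of each, served as reference levels. No group combined amiloride with the knock-down. The knock-down cells were lines made with a lentiviral vector, so what a line carries besides the knock-down cannot be told apart from it.

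Rab27a and Rab27b are small GTPases that bring multivesicular endosomes to the plasma membrane, where they fuse and release exosomes. Amiloride is a potassium-sparing diuretic that blocks epithelial sodium channels and, at higher concentrations, sodium-proton exchangers, and it lowers exosome release from several cell types. In cancer cachexia, muscle loses protein through the ubiquitin-proteasome system and autophagy, under the control of FoxO factors, glucocorticoids, and inflammatory cytokines.

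Library totals ran from 35913190 to 61032708 counted reads. Expression is given below as TMM-normalized CPM, which is counts relative to the library's total after scaling for its composition. The 10 skeletal muscle markers summed to 119000 to 201000 CPM in the 8 libraries, and none stood at 0. Several libraries stood apart. Liver transcripts were high in AM1, where 38 liver markers summed to 3450 CPM against 103 to 648 in the other 7 libraries. In KD2 and KD3, the B cell markers summed to 3.38 and 2.44 CPM against 60.5 to 704 in the other 6, the T cell markers to 17.6 and 13.1 against 54.9 to 402, and the macrophage markers to 270 and 132 against 518 to 979. Low lymphocyte sums also occurred among the reference mice. In NOR1, CAC1, and CAC4 the B cell markers summed to 6.03, 5.76, and 9.99 CPM and the T cell markers to 31.9, 18.1, and 13.4. Their macrophage markers summed to 248, 595, and 893 CPM. All 4 male sex markers had 0 counts in KD3, which allows up to 0.0558 CPM of each, while they summed to 111 to 133 CPM in the other 7. AM1, AM3, and KD1, together with 1 CAC library, also differed from all other libraries by at least 2-fold in 61 genes, a split that cuts across the labelled strains. Gapdh was one of these genes, with 199, 304, and 185 CPM in AM1, AM3, and KD1 against 1080 to 1490 in the other 5. List medians are therefore also given without KD2 and KD3, and those that moved most without AM1, AM3, and KD1 follow the gene lists. Whether the labelled strain holds for each mouse was not tested. In whole muscle, fewer cells of a type and less RNA per cell cannot be told apart.

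Gene by gene, no difference between the AM and KD gastrocnemius passed the test. Of 14745 genes tested, 0 were higher in AM and 0 lower (0% and 0%) by edgeR's quasi-likelihood test with Benjamini-Hochberg adjustment, where a call needed an FDR within 0.05 together with a fold change of 1.5 or more, or 0.667 or less. The smallest FDR was 0.9996. At an unadjusted p under 0.05, 78 genes (0.529%) were higher in AM and 85 (0.576%) lower, or 163 genes (1.11%) in all. If no gene differed, a share of about 0.05 would be expected, more than was seen. These values depended on single mice, since the 163 genes became 949 without KD1 and 96 without AM1. The smallest FDR was 0.27 without KD1 and 0.064 without KD2 and KD3, with 0 genes called in either fit. limma-voom called 0 genes, and DESeq2 called 1, Gm38394, described below. All 4 AM mice lay above all 4 KD mice for 75 genes (0.509%) and below them for 66 genes (0.448%). If the mice were interchangeable, each would be expected in 1 of 70 genes, a larger share than was seen.

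A difference that misses the threshold does not show that the groups were alike, so the interval of each difference was read as well. For 10022 genes (68%), the 95% interval of the AM vs. KD difference lay wholly within 2-fold, and for 5815 (39.4%) within 1.5-fold. Among the 9035 genes with a mean of at least 10 CPM, 7785 (86.2%) were held within 2-fold. Over all genes tested, 4723 had intervals reaching beyond 2-fold, so that a difference of that size was not bounded there with 4 mice against 4. The estimated differences themselves were small, with a median size of 0.15 on the log2 scale and 359 genes (2.43%) beyond 2-fold. The median standard error (SE) of a gene's log2 difference was 0.23.

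**Figure D1:**
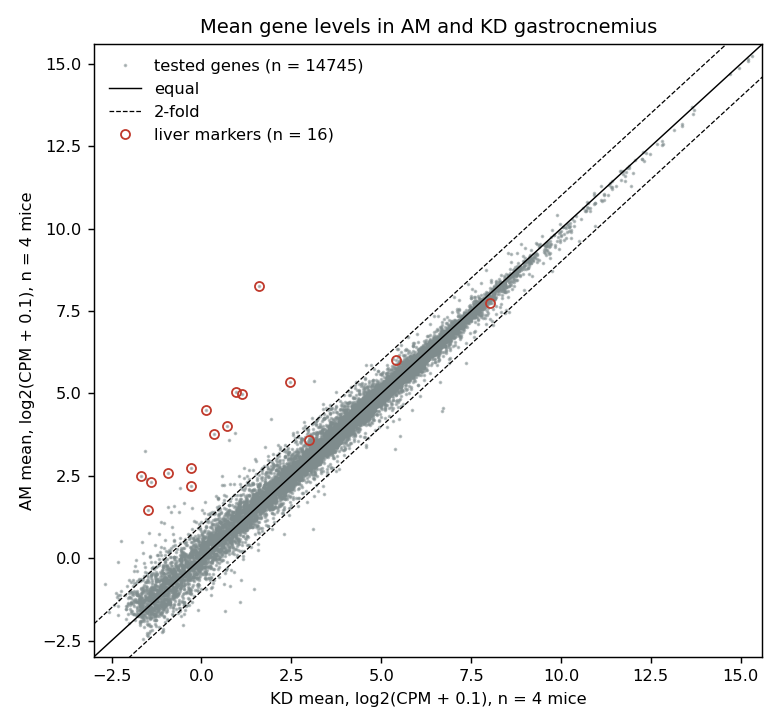
Mean level of each of the 14745 tested genes in KD (x axis) against AM (y axis), both as log2(CPM + 0.1) of the mean of 4 mice, with lines for equal levels and for 2-fold differences. Most genes lie between the 2-fold lines, and most of the 16 tested liver markers, circled, lie above them, since AM1 carried 3450 CPM of liver transcripts.

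The KD mice were less alike than the AM mice. Pearson's r of log2 CPM across genes was 0.945 to 0.965 over the 6 pairs of AM mice, 0.882 to 0.966 over the 6 pairs of KD mice, and 0.880 to 0.973 over the 16 pairs of an AM and a KD mouse. These values run across genes, which are not independent replicates, and describe the libraries only. The SD over mice was larger in KD for 10450 genes (70.9%), with a median SD of 0.36 in KD and 0.26 in AM on the log2 scale. On the first principal component, which held 56.2% of the variance, KD2 and KD3 stood at 93.4 and 100.3, and KD1 and AM1 at -69.0 and -65.6.

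Liver genes seen in AM1 alone were set aside. By a rule of at least 1 CPM in AM1 and 10 times the highest of all other libraries, 144 genes were AM1-only, and 25 of the 38 liver markers were among them. Only 10 of the 144 passed the filter on low counts, and 5 of these had an unadjusted p under 0.05. The serum albumin gene Alb, for example, stood at 1210 CPM in AM1, 5.98, 15.4, and 1.24 in AM2 to AM4, and 7.31, 0.323, 0.316, and 3.83 in KD1 to KD4. The 16 tested liver markers had a median log2 difference of 3.48 with AM1 and 0.07 without it, and with AM1 7 of them were higher at an unadjusted p under 0.05. Leaving the AM1-only genes out reduced the genes higher in AM at an unadjusted p under 0.05 from 78 to 73.

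Genes that the tumor moved were set against AM and KD next. In CAC vs. NOR, 633 genes were higher in CAC and 753 lower among 14666 tested (4.32% and 5.13%, edgeR, the same limits). Of the 629 higher genes that were tested in AM vs. KD, 0 differed, 4 were higher and 5 lower in AM at an unadjusted p under 0.05, and 404 (64.2%) had an interval within 2-fold, near the 68% of all genes. Their median log2 difference between AM and KD was -0.10, against -0.0047 over all genes tested. Of the 751 tested lower genes, 0 differed, 1 was higher and 1 lower at an unadjusted p under 0.05, and 440 (58.6%) were held within 2-fold, with a median difference of 0.0098. Relative to CAC, the higher genes had a median log2 fold change of -0.67 in AM and -0.58 in KD, and the lower genes 0.86 in AM and 0.79 in KD. Both of these comparisons share the CAC mice and are given side by side only. The genes were also chosen by the values of these same CAC and NOR mice. That choice by itself places other mice nearer to NOR, so medians relative to CAC or NOR do not measure a recovery. Relative to NOR, the median was 0.27 in AM and 0.34 in KD for the higher genes, and -0.30 and -0.31 for the lower genes.

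Single mice were more spread than these medians. For the genes higher in CAC, the median log2 distance from the NOR mean was 0.28, 0.31, 0.35, and 0.07 in AM1 to AM4 and 0.07, 0.77, 0.34, and 0.09 in KD1 to KD4, where the CAC mice stood at 0.82 to 1.12. For the genes lower in CAC it was -0.62, -0.41, -0.23, and -0.09 in AM and -0.26, -0.81, -0.38, and -0.09 in KD, where the CAC mice stood at -1.47 to -0.95. KD2 was thus the mouse nearest to CAC in both sets, and AM4, KD1, and KD4 were among those nearest to NOR in at least one set. The sign of the AM vs. KD median turned with the mice included. Without KD2 and KD3 it was 0.21 for the higher genes and -0.13 for the lower genes, and without AM1, AM3, and KD1 it was -0.24 and 0.16.

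**Figure D2:**
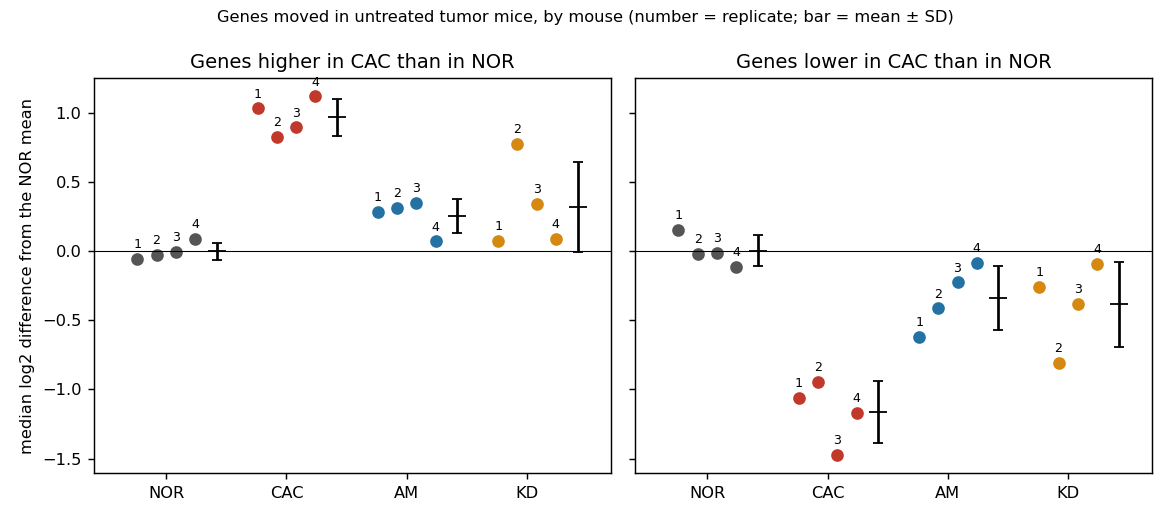
Median log2 distance from the NOR mean of the genes that were higher (633) or lower (753) in CAC than in NOR, with 1 point per mouse and the groups along the x axis. AM and KD mice overlap in both sets, and KD2 lies farthest toward CAC at 0.77 and -0.81.

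In the atrophy list 0 genes were called. The list of 23 held 6 genes higher and 17 lower in AM, and 2 lower at an unadjusted p under 0.05, with a median log2 difference of -0.19. Trim63, which encodes the muscle ubiquitin ligase MuRF1, stood at 328, 299, 372, and 544 CPM in AM1 to AM4 and at 101, 1020, 372, and 305 in KD1 to KD4. The KD mice held both the lowest and the highest value, and all AM mice lay between them. The means were 386 ± 110 in AM and 449 ± 396 in KD (SD, n = 4), against 2072 ± 488 in CAC and 363 ± 101 in NOR. The log2 difference was -0.21 with a 95% interval from -1.54 to 1.11, which leaves room for more than 2-fold either way. Fbxo32, the ubiquitin ligase atrogin-1, stood at 312, 227, 218, and 202 CPM in AM and 55.9, 615, 221, and 156 in KD, a log2 difference of -0.12 (95% interval -1.49 to 1.25). KD2 was again above and KD1 below every AM mouse, and without KD2 and KD3 the difference was 0.94 for Trim63 and 1.20 for Fbxo32. KD2 alone turned the sign, since the differences were 0.58 and 0.75 without it. The list's median then turned to 0.18, with 20 of 23 genes higher in AM, and without KD2 alone it was 0.01.

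The promoter of Trim63 is shown because the gene is a main marker of atrophy and a known FoxO target. It is taken from RefSeq (GRCm38.p6, chr4:134314870-134315169, + strand, from 250 bases before the transcription start to 50 after it), and capitals mark the match to the FoxO motif GTAAACA, searched on both strands.
Trim63: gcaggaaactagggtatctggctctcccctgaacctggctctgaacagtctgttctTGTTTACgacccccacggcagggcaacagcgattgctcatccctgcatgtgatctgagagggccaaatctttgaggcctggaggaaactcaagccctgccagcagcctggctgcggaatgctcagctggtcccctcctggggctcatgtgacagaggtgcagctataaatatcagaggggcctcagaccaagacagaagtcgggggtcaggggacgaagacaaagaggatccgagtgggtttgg
This motif was found in 1199 of 32851 mouse promoters of the same length (3.65%) and in 1 of the 23 promoters (4.35%) that the table held for 20 of the 23 atrophy genes. Fbxo32, Cebpd, and Eif4ebp1 had no entry.

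The 2 atrophy genes with a small p were Cebpb, a transcription factor of inflammation, and Gadd45a, which promotes atrophy after denervation. Cebpb stood at 26.2, 11.9, 32.6, and 19.4 CPM in AM and 29.9, 82.7, 99.9, and 18.4 in KD (log2 difference -1.35, 95% interval -2.59 to -0.10). Gadd45a stood at 19.8, 26.9, 25.5, and 22.2 CPM in AM and 18.1, 55.4, 50.3, and 37.9 in KD (-0.77, 95% interval -1.47 to -0.07). In both genes KD2 and KD3 held the highest values. KD1 lay within the AM range for Cebpb and below it for Gadd45a, and without KD2 and KD3 the differences were -0.09 and -0.24.

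**Figure D3:**
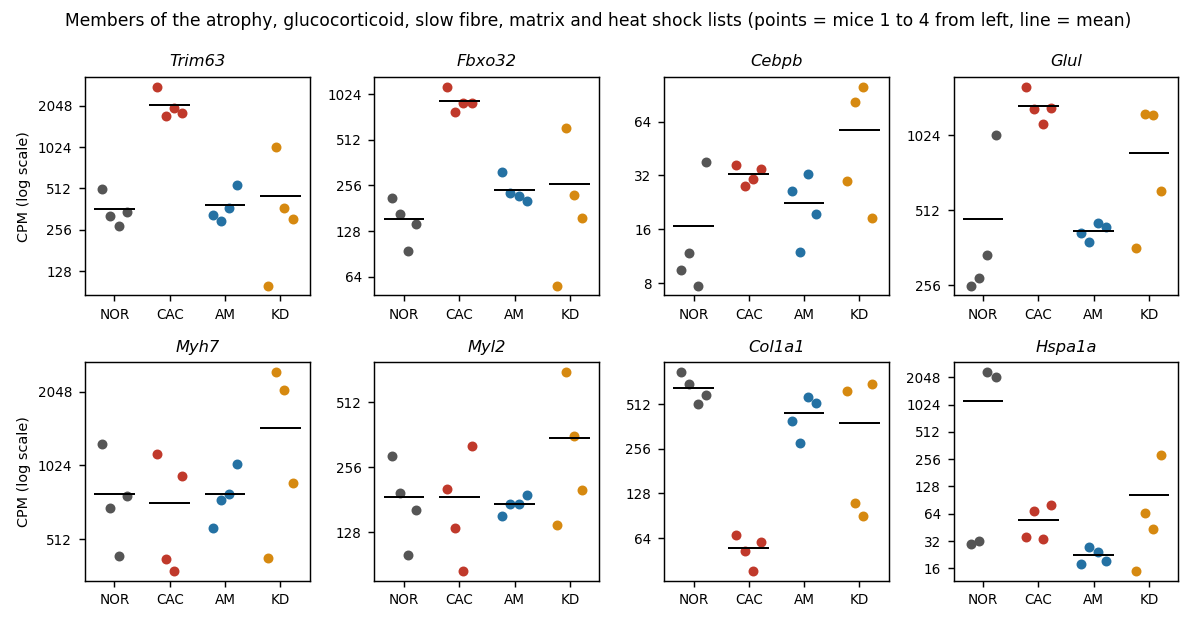
CPM of selected genes in every NOR, CAC, AM, and KD mouse on a log axis, with the group means as lines. For Trim63, the KD mice run from 101 to 1020 CPM and the AM mice from 299 to 544.

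In the proteasome list, all 32 subunits had lower estimates in AM, with 0 called, 0 at an unadjusted p under 0.05, a median log2 difference of -0.14, and 30 of 32 intervals within 2-fold, where 86.2% of all genes at 10 CPM or more were held within that range. Psma4, a subunit of the core particle, stood at 76.3, 78.8, 84.9, and 76.4 CPM in AM and 70.9, 117, 85, and 85.7 in KD, with 139 ± 10.6 in CAC. This direction depended on the KD mice included, since all 32 estimates were higher in AM without KD2 and KD3, and the list's median was 0.0077 without KD2 alone. Of 26 autophagy genes, 7 were higher and 19 lower in AM, 0 were called, and 24 were held within 2-fold (median -0.08).

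Glucocorticoid response genes were mostly lower in AM without a call. Of 17 tested genes, 3 were higher and 14 lower in AM, 0 were called, and 2 were lower at an unadjusted p under 0.05. Glul, the glutamine synthetase that muscle uses to export nitrogen, stood at 415, 381, 453, and 438 CPM in AM and at 360, 1250, 1240, and 611 in KD. The AM mice were tightly grouped, and 3 of 4 KD mice lay above them. The log2 difference was -1.03 (SE 0.37) with 422 ± 31.3 CPM in AM and 865 ± 450 in KD (SD, n = 4), against 1340 ± 194 in CAC and 474 ± 372 in NOR. Pik3r1, a regulatory subunit of PI3 kinase that glucocorticoids induce, stood at 57.6, 59.7, 81.5, and 63.7 CPM in AM and 67, 125, 116, and 84 in KD (log2 difference -0.57). Fkbp5, a cochaperone of the glucocorticoid receptor, had means of 73.8 ± 14.3 and 74 ± 30.7 CPM, with a difference of 0.00 (95% interval -0.69 to 0.70). Of the 31-base words of Glul, 19.7% also occur in other genes. Without KD2 and KD3 the difference was -0.19 for Glul, -0.20 for Pik3r1, and 0.60 for Fkbp5, and the list's median went from -0.19 to 0.26.

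In the inflammatory lists 0 genes were called. The IL-6 and STAT3 list had 15 of 19 tested genes higher in AM (median 0.12, but 0.06 without KD3 alone). Stat3, the transcription factor downstream of the IL-6 receptor, stood at 142 ± 20.9 CPM in AM and 128 ± 11.8 in KD. Il6ra, the IL-6 receptor itself, had 21.2 ± 4.87 CPM in AM, 20.4 ± 1.98 in KD, and 66.8 in CAC on average. The NF-kappaB list had 11 of 16 higher (median 0.22, but 0.03 without AM1 alone and 0.09 without KD2 and KD3), and in both lists 0 genes had an unadjusted p under 0.05. Of 30 interferon response genes, 11 were higher and 19 lower in AM, with 2 lower at an unadjusted p under 0.05. Ifit1, an interferon-induced protein that binds viral RNA, stood at 3.05, 4.29, 2.74, and 5.28 CPM in AM and 5.08, 8.37, 5.94, and 8.73 in KD (log2 difference -0.87, SE 0.28). Its relative Ifit3 stood at 3.63, 7.73, 5.73, and 9.23 CPM and 7, 11.1, 11.1, and 18.6 (-0.86), and shares 61.8% of its 31-base words with Ifit3b, so that its reads are uncertain. The interferon median was -0.07, and -0.34 without KD2 and KD3, the mice with few leukocyte transcripts. It was 0.14 without AM1, AM3, and KD1, with 22 of 30 genes higher in AM. The sums of the leukocyte markers moved with these libraries too, and their part in the result was not tested.

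Among glycolysis enzymes, 1 gene had an unadjusted p under 0.05. Of 17 tested entries (Aldoa stands under 2 identifiers), 5 were higher and 12 lower in AM, 14 were held within 2-fold, and the median was -0.07. Eno3, the muscle enolase, stood at 3403 ± 742 CPM in AM and 3582 ± 614 in KD (SD, n = 4; log2 difference -0.07, 95% interval -0.56 to 0.43). The gene with the small p was Pfkfb3, which makes the activator of phosphofructokinase, with 400, 556, 443, and 336 CPM in AM and 342, 222, 140, and 261 in KD. Only AM4 and KD1 overlapped, and the log2 difference was 0.85 (SE 0.28, exact permutation test, two-sided, p = 0.0571). It was 0.53 without KD2 and KD3. Gapdh, as said above, followed the split of AM1, AM3, and KD1 from the other mice, and 27.2% of its 31-base words also occur in other genes.

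For fuel choice and ketone bodies, 8 of 18 genes were higher and 10 lower in AM, with 0 called and a median of -0.05. Lpl, the lipase that frees fatty acids from lipoproteins, stood at 622, 1080, 773, and 741 CPM in AM and at 1130, 1040, 1060, and 1070 in KD (log2 difference -0.42). Slc16a1, the monocarboxylate transporter MCT1, stood at 41.3, 47.6, 52.3, and 46.4 CPM in AM and 54.7, 61.6, 75.8, and 51.5 in KD (-0.37, and -0.17 without KD2 and KD3). These were the 2 genes of the list at an unadjusted p under 0.05. Adipocyte markers summed to 2890 to 9590 CPM in AM and 5120 to 8400 in KD, and their part in the Lpl values was not tested. Oxct1, which activates ketone bodies for oxidation, stood at 261 ± 74.3 CPM in AM and 308 ± 72.2 in KD, against 150 ± 41.4 in CAC (AM vs. KD log2 difference -0.23, 95% interval -0.77 to 0.30). Pdk4, the kinase that shuts pyruvate out of the citric acid cycle, stood at 303, 683, 664, and 828 CPM in AM and 565, 580, 301, and 321 in KD (0.49, 95% interval -0.30 to 1.27).

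Mitochondrial genes had 0 calls. Of 18 fatty acid oxidation enzymes, all 18 had an interval within 2-fold, as had 19 of 20 citric acid cycle enzymes and 41 of 42 respiratory chain subunits. Their medians were -0.09, -0.04, and -0.09, and 0 of these genes had an unadjusted p under 0.05. Most estimates were lower in AM, in 17 of 18, 16 of 20, and 37 of 42 genes. Without KD2 and KD3, 3 of 18, 10 of 20, and 27 of 42 were higher in AM. Cox4i1, a subunit of cytochrome c oxidase, was chosen as one of the list genes most alike in the groups. It stood at 537 ± 45.5 CPM in AM and 539 ± 21.6 in KD (SD, n = 4), a log2 difference that rounds to 0 with a 95% interval from -0.29 to 0.29.

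Fast and slow fibre genes had 0 calls. Of 17 fast fibre genes, 4 were higher and 13 lower in AM, 16 were held within 2-fold, and the median was -0.09. Myh4, the myosin heavy chain of type IIb fibres, ran from 31700 to 39000 CPM in AM and from 25500 to 45900 in KD. All 14 slow fibre genes had lower estimates in AM, with a median of -0.60, 0 at an unadjusted p under 0.05, and only 1 interval within 2-fold. Myh7, the slow myosin heavy chain, stood at 571, 738, 781, and 1040 CPM in AM and 431, 2450, 2080, and 867 in KD (log2 difference -0.89, 95% interval -2.02 to 0.24). Myl2, its regulatory light chain, stood at 153, 173, 174, and 191 CPM and at 138, 705, 357, and 201 (-1.01, 95% interval -2.04 to 0.01). KD2 and KD3 were above all AM mice in both genes, KD1 was below them, and KD4 was within or just above their range. Without KD2 alone the differences were -0.52 and -0.42. Myh7 shares 22.5% of its 31-base words with Myh6, one of the 61 genes above, so that its reads are uncertain. Without KD2 and KD3 the list's median was 0.29, with 13 of 14 genes higher in AM, and without KD2 alone it was -0.18.

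Denervation and neuromuscular junction genes leaned the same way, with 3 of 18 tested genes higher and 15 lower in AM, 1 of them (Gadd45a, above) at an unadjusted p under 0.05, and a median of -0.30. Sln, the sarcolipin that uncouples the calcium pump, stood at 13.5, 18.7, 12.3, and 7.68 CPM in AM and 11.9, 145, 21.3, and 6.05 in KD. KD2 alone set its mean of 46.1 ± 66.5 in KD apart from 13 ± 4.51 in AM, since its log2 difference was -1.82 with all mice and rounds to 0 without KD2, and without KD2 and KD3 the list's median was 0.08.

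Collagens and matrix genes were higher in AM in 26 of 30 cases, with 0 called, 0 at an unadjusted p under 0.05, and a median of 0.21. Col1a1, the main chain of type I collagen, stood at 395, 282, 574, and 521 CPM in AM and 626, 111, 90.7, and 695 in KD. Col3a1, the chain of type III collagen, stood at 748, 519, 742, and 868 CPM and at 1150, 195, 125, and 1220. In both genes KD1 and KD4 lay above, and KD2 and KD3 below, every AM mouse, so the KD group was split into pairs with the AM mice between them. In CAC the means were 54.7 ± 12.4 and 114 ± 36.7 CPM, and in NOR 661 ± 139 and 909 ± 158. Without KD2 and KD3 the list's median turned to -0.25, with 8 of 30 genes higher in AM. The tendon and cartilage markers summed to 395 and 387 CPM in KD2 and KD3, to 845 and 673 in KD1 and KD4, and to 654 to 972 in AM, and their part in the matrix values was not tested.

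For several other lists the median was also of the opposite sign without KD2 and KD3, at 0.14 for autophagy, 0.15 for glycolysis, 0.06 for fuel choice and ketone bodies, 0.17 for fast fibre, 0.22 for circadian clock, 0.14 for sodium and potassium handling, and 0.03 for Rab27 and exosome release genes, and at 0.03 for respiratory chain subunits. The median of the skeletal muscle markers went from -0.10 to 0.20. The sign was kept for fatty acid oxidation (-0.06), citric acid cycle (-0.01), IL-6 and STAT3 response (0.10), unfolded protein and integrated stress response (-0.08), and antioxidant genes (-0.04).

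With 1 mouse left out at a time, the median changed sign in at least 1 of the 8 fits for 10 of the 24 gene lists. The widest of these ranges was that of proliferation genes, from -0.32 without KD3 to 0.50 without KD1. Collagens and matrix genes ran from a value that rounds to 0 without KD3 to 0.49 without KD4, and atrophy genes from -0.38 without KD1 to 0.01 without KD2. Among the lists that kept their sign, slow fibre genes ran from -0.83 without KD1 to -0.18 without KD2, glucocorticoid response genes from -0.44 without KD1 to -0.04 without KD2, and circadian clock genes from -0.41 without KD1 to -0.02 without KD3.

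Without AM1, AM3, and KD1, which leaves 2 AM and 3 KD mice, other medians moved. They turned to 0.23 for proliferation genes and 0.96 for adipocyte markers, in addition to the interferon list. Several negative medians were larger in size, at -0.42 for atrophy genes, -0.27 for proteasome subunits, -0.17 for autophagy, -0.13 for fuel choice and ketone bodies, -0.55 for glucocorticoid response, -0.63 for circadian clock, -0.29 for antioxidant, -0.47 for denervation and neuromuscular junction, -0.21 for sodium and potassium handling, and -0.06 for Rab27 and exosome release genes. The median was 0.43 for collagens and matrix genes, with 27 of 30 higher in AM, and -0.79 for slow fibre genes. It was nearer to 0 for NF-kappaB response genes (0.12), the unfolded protein and integrated stress responses (-0.02), and sodium-proton exchangers and amiloride-sensitive channels (0.03).

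**Figure D4:**
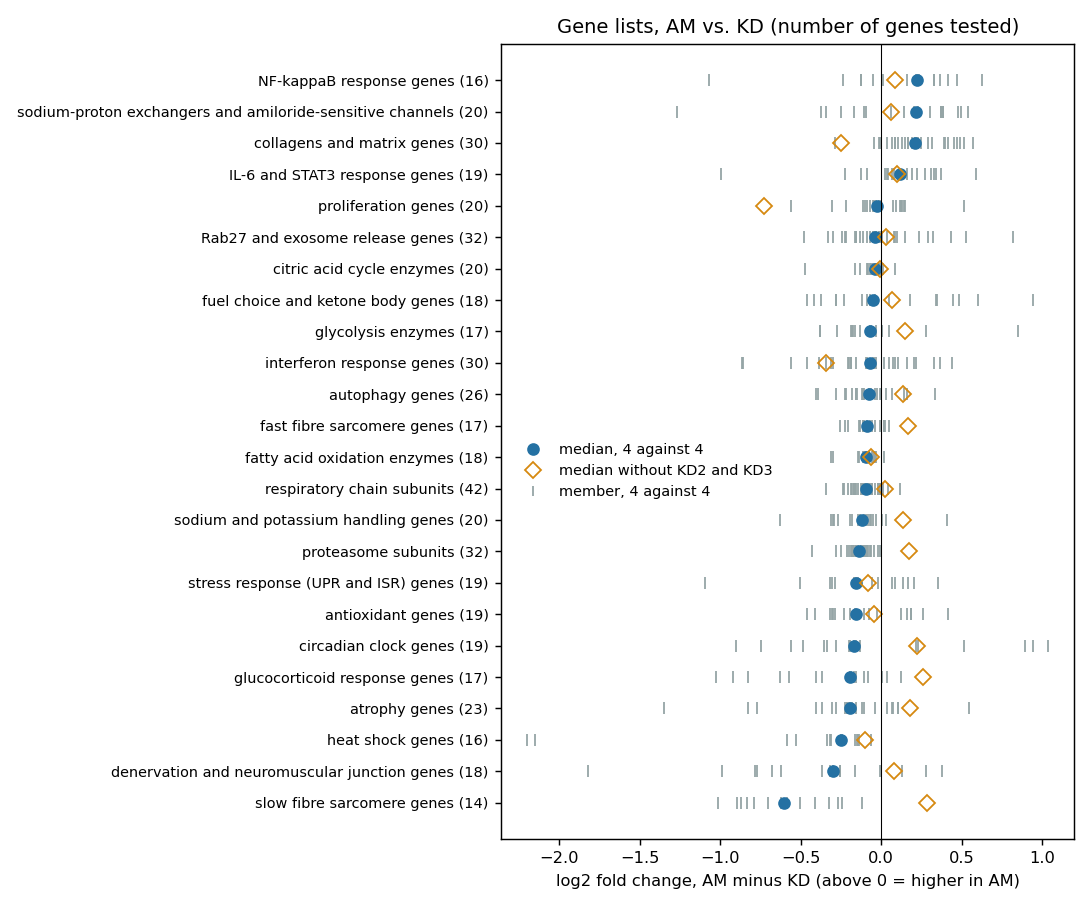
Median log2 difference (AM minus KD) of each gene list over all 8 mice and without KD2 and KD3, with the lists along the y axis. The slow fibre genes move from -0.60 to 0.29, the collagens and matrix genes from 0.21 to -0.25, and the respiratory chain subunits from -0.09 to 0.03.

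Heat shock genes were lower in AM in 16 of 16 cases, with 0 called and 2 at an unadjusted p under 0.05 (median -0.25, and -0.10 without KD2 and KD3). These were Hspa1a and Hspa1b, the stress-induced Hsp70 genes. Hspa1a stood at 17.7, 27.8, 24.2, and 19.3 CPM in AM and at 15, 65.4, 43.9, and 288 in KD. Hspa1b stood at 18.2, 29.8, 25.4, and 19.5 CPM and at 14.7, 52.8, 39.9, and 310. KD2, KD3, and KD4 were above all AM mice in both genes, with KD4 far above the others, and KD1 was below all of them. The log2 differences were -2.20 (95% interval -3.96 to -0.43) and -2.15 (-4.03 to -0.27), and without KD2 and KD3 they were -2.75 and -2.79. KD4 set most of their size, since they were -0.90 and -0.62 without it. NOR mice themselves ranged from 29.9 to 2320 CPM of Hspa1a, so that values far apart also occurred without a tumor. The genes share 67.6% of the 31-base words of Hspa1b, and reads may have been split between them.

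Their promoters are shown because the pair moved together. They are from RefSeq (GRCm38.p6, - strand, chr17:34972107-34972406 for Hspa1a and chr17:34959189-34959488 for Hspa1b), and capitals mark the match to the heat shock element GAANNTTC, searched on both strands.
Hspa1a: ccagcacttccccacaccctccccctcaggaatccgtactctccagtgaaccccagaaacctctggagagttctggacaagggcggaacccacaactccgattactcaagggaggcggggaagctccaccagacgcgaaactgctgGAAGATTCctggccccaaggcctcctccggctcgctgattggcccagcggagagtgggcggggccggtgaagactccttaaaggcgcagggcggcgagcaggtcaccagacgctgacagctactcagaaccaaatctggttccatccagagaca
Hspa1b: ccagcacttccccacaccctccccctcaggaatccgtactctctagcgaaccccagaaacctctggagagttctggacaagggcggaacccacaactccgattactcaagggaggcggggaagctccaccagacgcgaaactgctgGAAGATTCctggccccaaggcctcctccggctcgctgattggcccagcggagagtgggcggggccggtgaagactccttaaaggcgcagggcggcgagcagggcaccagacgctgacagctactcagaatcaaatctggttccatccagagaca
The element was found in 2582 of 32851 promoters (7.86%) and in 10 of 18 promoters (55.6%) held for 12 of the 16 heat shock genes, some of which have more than 1. Cryab, Hsp90aa1, Hsp90ab1, and Hspa8 had no entry. The FoxO motif was found in 0 of these 18.

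Amiloride targets and exosome genes in the host muscle were also compared. Of 20 tested sodium-proton exchangers and amiloride-sensitive channels, 13 were higher and 7 lower in AM, 0 had an unadjusted p under 0.05, and the median was 0.22. It was 0.09 without KD2, 0.10 without AM1, and 0.06 without KD2 and KD3. Of 20 genes of sodium and potassium handling, 3 were higher and 17 lower in AM (median -0.12), with 17 intervals within 2-fold. Of 32 tested Rab27 and exosome release genes, 12 were higher and 20 lower, 25 were held within 2-fold, and the median was -0.04. Rab27a stood at 9.23, 11.4, 9.59, and 12.3 CPM in AM and 10.8, 12.4, 15.6, and 9.03 in KD, and Rab27b at 1.04, 1.55, 2.13, and 0.944 and at 2.19, 1.61, 0.261, and 1.05. The shRNAs act in the tumor cells, so these muscle values check nothing about the knock-down. Cd81, a tetraspanin carried by exosomes, stood at 176 ± 8.3 CPM in AM and 176 ± 17.1 in KD (SD, n = 4).

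Of 19 circadian clock genes, 6 were higher in AM, with 0 called, 1 at an unadjusted p under 0.05, 4 intervals within 2-fold, and a median of -0.17. The hour at which each muscle was taken is not given in the sources used here. Nr1d1, the repressor REV-ERBα, stood at 300, 365, 262, and 353 CPM in AM and 290, 161, 99.2, and 138 in KD (log2 difference 0.90, 95% interval 0.18 to 1.61, and 0.58 without KD2 and KD3). Thra, the thyroid hormone receptor α, stood at 124, 120, 132, and 142 CPM in AM and 117, 95.8, 88.8, and 105 in KD (0.36), with every AM mouse above every KD mouse. These genes overlap on opposite strands, and since strandedness is not given in the sources used here, their reads cannot be told apart. The remaining gene lists, cell type markers aside, had 0 genes called and 0 at an unadjusted p under 0.05. For the unfolded protein and integrated stress responses, 6 of 19 genes were higher in AM (median -0.15), for antioxidant genes 6 of 19 (-0.16), and for proliferation genes 8 of 20 (-0.02, and -0.73 without KD2 and KD3).

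The genes with the smallest unadjusted p were listed in each direction, leaving out liver markers and genes with opposite signs in the labelled strains. None passed the FDR limit. They were chosen by p in these same mice, so separated groups and small exact p-values among them add no support. Among those higher in AM, Pde2a (ENSMUSG00000110195, chromosome 7, 101421691 to 101512827), a phosphodiesterase of cyclic nucleotides, stood first. It had 50.7, 47.4, 62.6, and 52.6 CPM in AM and 32.9, 33.9, 26.1, and 18.4 in KD, so every AM mouse was above every KD mouse. The log2 difference was 0.94 (SE 0.20), the unadjusted p was 0.00139 in edgeR and 0.0286 in a two-sided exact permutation test, the smallest that 4 against 4 allows. Its reads are uncertain, since 63.5% of its 31-base words also lie in Gm45837, an overlapping model on the same strand. Sept8 (listed as 8-Sep), a septin of the cytoskeleton, stood at 40.6, 52, 50.7, and 49.7 CPM in AM and 32.4, 38.7, 40.2, and 28.9 in KD (log2 difference 0.47). The AM mice were again all above the KD mice. Gtdc1, Agt, Gpm6b, and Thra were separated in the same way, with log2 differences of 0.54, 0.48, 0.55, and 0.36. Ss18, Slc39a9, Efna1, Nup62, Pfkfb3, and Plekhg1 overlapped between the groups, with log2 differences from 0.59 (Efna1, the ligand ephrin A1) to 1.32 (Slc39a9, a zinc transporter, and Nup62, a nucleoporin). Nup62 was high in AM2 and AM3 (48.4 and 51.3 CPM) and no higher in AM1 and AM4 (16.3 and 16.1) than in KD2 (16.9).

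Among the genes lower in AM, Gm38394 (ENSMUSG00000094410, chromosome 1, 133619940 to 133661318) had the smallest p of all. It stood at 49.5, 45.4, 46.3, and 48.9 CPM in AM and 70.1, 75.6, 82.3, and 64 in KD, with no overlap. The log2 difference was -0.61 (SE 0.11). Its unadjusted p was 0.000429 in edgeR and 0.0286 in a two-sided exact permutation test, and DESeq2 called it with an adjusted p of 0.01. Since Gm38394 was chosen by its p, the exact test adds no support. It overlaps Zbed6 and Zc3h11a on the same strand and 91.2% of its 31-base words also occur elsewhere, so its counts depend on how shared reads were placed. The CAC mice stood at 72.9 ± 5.02 CPM and the NOR mice at 64.6 ± 17. Rasd1, a Ras-related gene induced by glucocorticoids, stood at 4.93, 6.75, 5.95, and 8.5 CPM in AM and 13.6, 11.9, 8.88, and 16.1 in KD (log2 difference -0.95). Otud1, a deubiquitinase, stood at 16.2, 13.7, 16.5, and 17 CPM in AM and 17.9, 55.3, 39.4, and 29.5 in KD (-1.16, and -0.57 without KD2 and KD3). Both were without overlap, as were Hoxc6 (-0.62), Kctd20 (-0.58), and Zfp605 (-0.90). Kxd1 (-0.68), Reep1 (-1.15), Nudt18 (-0.65), Sox9 (-1.15), and Ifit1 (-0.87) overlapped. For Reep1, which shapes the endoplasmic reticulum, KD1 to KD3 stood at 68.3, 78.4, and 92.3 CPM and KD4 at 28.7, inside the AM range of 23.2 to 37.2. The differences were -0.68 for Reep1 and -0.66 for Sox9, a transcription factor of cartilage, without KD2 and KD3. Of the 31-base words of Kxd1, 13.8% also occur elsewhere, so that its reads are uncertain.

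**Figure D5:**
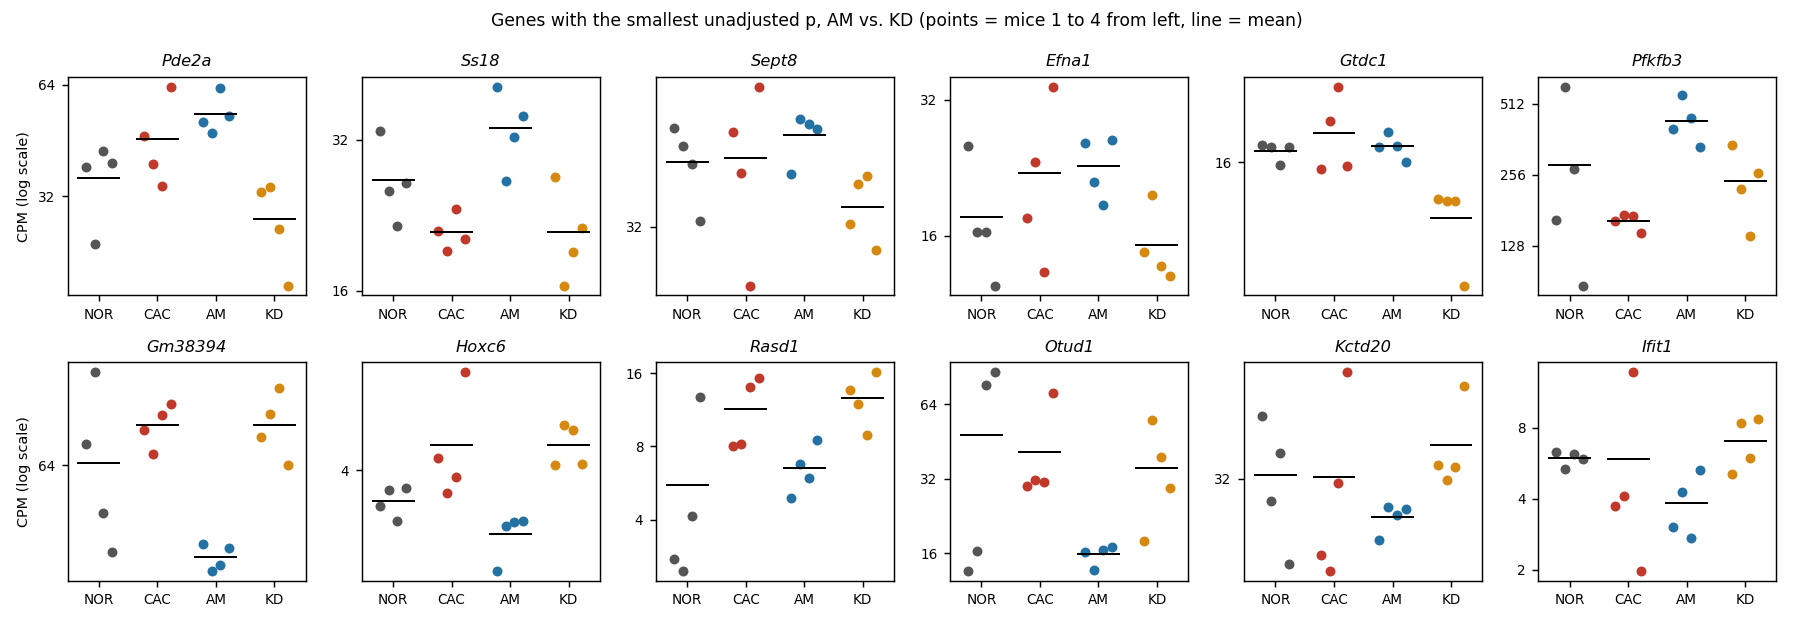
CPM of 12 of the named genes in each NOR, CAC, AM, and KD mouse on a log axis, with mice 1 to 4 from left to right and group means as lines. For Gm38394, the AM mice lie between 45.4 and 49.5 CPM and the KD mice between 64 and 82.3.

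Of the 163 genes with an unadjusted p under 0.05, all 163 kept their direction without KD2 and KD3, and 38 of them still had a p under 0.05. Without AM1, AM3, and KD1, 161 of the 162 that could be tested kept it, and 62 had a p under 0.05. These genes were chosen for the difference in mice that the second fits also contain, so kept direction is a description only.

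At the other end, the genes of the lists with the narrowest interval around 0 were named. Atg4b, a protease of autophagy, stood at 33.1, 34.8, 35, and 35.2 CPM in AM and 31.2, 36.2, 36.5, and 34.7 in KD (95% interval of the log2 difference -0.22 to 0.22). Snap23, a SNARE protein of exocytosis (-0.26 to 0.23), Atg16l1 of autophagy (-0.27 to 0.28), Cd81 (-0.26 to 0.28), Cox4i1 (-0.29 to 0.29), and the fatty acid oxidation enzyme Echs1 (-0.29 to 0.19) followed.

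Fits by labelled strain take the labels as given, although 61 genes split the mice across them, as said above. With the labelled strain as a term in the fit, 0 genes were called by edgeR, and 86 were higher and 87 lower in AM at an unadjusted p under 0.05. The difference between AM and KD was also compared between the labelled strains, which rests on 2 mice against 2 in each. No gene passed the FDR limit (0 of 14745, 0%), and 120 (0.814%) had an unadjusted p under 0.05. Zfp280b, a zinc finger gene, had one of the smallest values (strain difference 2.27 on the log2 scale, SE 0.48, FDR 1).

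Pathway entries of the annotation in the table gave the same picture. Over 306 KEGG entries of 10 to 300 tested genes, the median log2 difference was within 0.2 of 0 for 291, above 0 for 166, and below 0 for 140. It ranged from -0.17 (Starch and sucrose metabolism) to 0.74 (Primary immunodeficiency). The latter entry holds lymphocyte genes, and its median without KD2 and KD3 was -0.001, while that of Starch and sucrose metabolism was 0.01. B cell and T cell markers likewise had medians of 0.93 and 0.97 with all mice and -0.06 and -0.002 without KD2 and KD3. They were 0.22 and 0.17 without AM1, the mouse with the highest sums, 2.39 and 2.23 without KD1, and 2.08 and 1.88 without AM1, AM3, and KD1. Further marker medians were 0.16 for macrophages, -0.73 for neutrophils, -0.29 for adipocytes, -0.29 for erythrocytes, 0.13 for endothelium, 0.09 for Schwann cells and nerve, and 0.39 for tendon and cartilage. Apart from the liver markers, 1 marker had an unadjusted p under 0.05. It was Prg4 of the tendon and cartilage list, which encodes the joint lubricant lubricin, with 27, 31.3, 26.4, and 10.7 CPM in AM and 14.5, 17.1, 7.89, and 13.4 in KD (log2 difference 0.86, 95% interval 0.06 to 1.67). AM1 to AM3 lay above all KD mice and AM4 among them. Without KD2 and KD3, the medians of macrophages, adipocytes, and erythrocytes were -0.53, -1.10, and 1.02, and those of neutrophils, endothelium, Schwann cells and nerve, and tendon and cartilage -1.44, 0.40, 0.57, and 0.04. With 1 mouse left out, the erythrocyte median ran from -1.37 without AM2 to 0.91 without KD2, and the adipocyte median from -0.93 without AM2 to 0.57 without KD1. The neutrophil median ran from -1.21 without AM3 to -0.22 without KD1, and the macrophage median from -0.15 without KD3 to 0.56 without KD4. Without AM1, AM3, and KD1 the median was 0.56 for macrophages, 0.58 for tendon and cartilage, 0.29 for Schwann cells and nerve, and -0.14 for erythrocytes.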

How the data were processed

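Poly(A) RNA of gastrocnemius was sequenced on an Illumina HiSeq2500, with 1 library per mouse. The authors deposited whole-number read counts per gene, without normalization, and FPKM values that the authors computed from these counts by dividing by 1 length per gene and by the counted reads of the library. FPKM values were not tested. The submitters' processing notes name fastp, Bowtie2, HISAT2, and StringTie 1.3.1, and the builds mm9 and GRCm38, with no role for either. The counting tool and strandedness are not given in the sources used here.

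Counts of the 4 AM and 4 KD libraries were compared in R 4.3.3 with edgeR 4.0.16 (TMM, filterByExpr at a count of 10 and a total of 15, glmQLFit, quasi-likelihood F test, Benjamini-Hochberg adjustment over all genes tested). The authors worked with NOISeq, which was not run here. Intervals are 95% intervals of the log2 fold change. CPM values were scaled by TMM over all 16 libraries, and log2 CPM used a prior count of 2. Single genes were also compared by a two-sided exact permutation test on log2 CPM (70 arrangements, smallest p 0.0286). Nothing in the labels ties mice of a group to separate cages or days, and p-values measure the spread between these mice. Counting error was small at this depth. limma 3.58.1 (voom) and DESeq2 1.42.0 were alternatives, as were other scalings, filters, covariates, and sets of mice.

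The comparison, gene lists, and markers were chosen with earlier results of these data known, and mice were placed in groups by their labels. Lists are described by counts and medians, with no test. The named genes are the 12 with the smallest p in each direction with a mean of at least 1 CPM, the same sign in both labelled strains, and no place on the liver list, the list genes with an unadjusted p under 0.05, the 6 list genes with the narrowest interval around 0, and the 5 genes with the smallest p for the strain difference. Other genes named as examples were chosen after their values were seen. One of the genes lower in AM is not reported here. Of the latter 5, Gm28042, Mup11, Hnrnpa3, and H2-Q10 are given only in the closing section. The fit was also run on simulated data with 200 changed genes. Those counts had equal spread in both groups, unlike the larger spread in KD here, so the run does not check the fit under these conditions. Gene positions and shared 31-base words were read from GENCODE (GRCm38), and promoters from RefSeq (GRCm38.p6). Figures were made with Python 3.11.15 and matplotlib 3.10.9.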

Additional observations from a re-analysis of the deposited data

Results flagged for a closer look

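In each group of 4 mice, the highest or lowest value was compared with the others by Dixon's ratio at its 95% limit for the gene lists and named genes. Of 146 groups, 11 passed, and chance alone marks about 1 in 20. Among AM mice, the circadian clock genes averaged 5.82 log2 CPM in AM3 against 5.35 to 5.37 in the others. Slc39a9 stood at 10.3 CPM in AM4 against 29.5 to 32.4, Hoxc6 at 2.46 in AM1 against 3.05 to 3.13, and Hnrnpa3 at 20.1 in AM3 against 10.5 to 10.7. Among KD mice, the fuel choice and ketone body genes averaged 6.79 log2 CPM in KD1 against 6.45 to 6.49. The male sex markers averaged -4.62 log2 CPM in KD3 against 4.64 to 4.75, with 0 counts for all 4 markers. Gtdc1 stood at 8.44 CPM in KD4 against 13.1 to 13.2, Kxd1 at 60.9 in KD4 against 98.2 to 108, and Kctd20 at 54 in KD4 against 31.9 to 34.7. Zfp605 stood at 5.41 CPM in KD1 against 2.81 to 2.95, and Echs1 at 125 in KD3 against 110 to 112. When the AM vs. KD difference was compared between the labelled strains, no gene (0) passed the FDR limit, and 120 had an unadjusted p under 0.05 (edgeR).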

How the results depend on the processing

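The count of 0 called genes held in every edgeR and limma-voom alternative, and DESeq2 called 1 gene lower in AM, Gm38394. Counts at an unadjusted p under 0.05 (78 higher and 85 lower) moved more. They were 193 higher without a filter beyond 1 count, 156 and 162 with all 16 libraries in 1 fit, and 40 and 39 with C57BL/6-labelled mice alone, where 34.7% of genes were held within 2-fold, and 111 and 119 (53.3%) with BALB/c-labelled mice alone. Leaving out 1 mouse at a time gave 50 (without AM1) to 493 (without KD1) higher, 46 to 456 lower, and 61.8% to 66.9% within 2-fold. Alternatives chosen after seeing the data gave 206 and 231 without KD2 and KD3 and 188 and 145 without AM1, AM3, and KD1. Deviations from the group means of mice with the same number correlated at 0.556, 0.082, 0.269, and 0.069 (0.385 and 0.147 within the labelled strains, 1 value each). Not every value was over 0.1, and the labels share a strain and tumor line between mice 1 and 2 and between mice 3 and 4 but tie no single number to a pair, so the numbers were not taken to pair the mice. With a replicate block 411 genes were higher and 116 lower at an unadjusted p under 0.05, with 0 called.

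Among the single genes followed under all alternatives, these log2 differences turned sign by more than their SE. Atg16l1 was -0.17 without AM1, AM3, and KD1, and Rab27a was 0.10 without KD2 and KD3. With BALB/c-labelled mice alone, Cox4i1 was 0.14, Mup11 -4.75, Hnrnpa3 0.99, and H2-Q10 -1.72. With C57BL/6-labelled mice alone, Gm28042 was -9.93, Zfp280b 0.72, and Rab27b -0.55. With 1 mouse left out, Hnrnpa3 ran from -1.008 (without KD3) to 0.01954 (without KD2). Cd81, Snap23, Atg4b, and Echs1, with differences near 0, also changed sign, by less than their SE. The causes were not tested, and Gm28042 and Mup11 rest on libraries at 0. Total counts as the only scaling moved the median of all genes by 0.05 on the log2 scale, and no other scaling by more than 0.01. Lists whose median changed sign with KD2 and KD3 left out are named in the report, apart from the male sex markers (0.40 to -0.03). With 4 mice against 4, 4723 genes had intervals reaching beyond 2-fold.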
